A study of Mus musculus with 2 samples.

Results

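Gdnf, Gfra1, Kitl and Kit encode a pair of ligands of the spermatogonial stem cell niche and the receptors they bind. They were chosen by gene name, as every non-control probe of the array named for one of the 4 genes, which gave 6 of 15208 probes for 4 of 11139 gene names: 1 for Gdnf and 2 for Kitl on the ligand side, and 2 for Gfra1 and 1 for Kit on the receptor side. The samples were a preparation labelled as isolated Sertoli cells, the somatic nurse cells of the seminiferous tubule, made 1 month after a busulphan dose of 25 mg/kg, and a preparation labelled the same way from untreated mice. Both came from testes of adult male Swiss mice aged 3 months, were prepared by digestion with collagenase and hyaluronidase and by straining, and were not cultured. Busulphan is an alkylating drug used to deplete germ cells. Each preparation was labelled with Cy3 and hybridised to 1 single-colour Agilent array, so n = 1 per group, no test was possible and no difference below has a replicate check. The number of mice in each preparation was not stated, and preparation, labelling, array and treatment cannot be told apart. On the busulphan array 12064 probes stood well above background, and on the control array 12302.

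GDNF is a growth factor that Sertoli cells secrete. It binds the membrane-anchored co-receptor GFRA1 on undifferentiated spermatogonia and signals through the receptor tyrosine kinase RET, which sustains stem cell self-renewal. KITL, also called stem cell factor, is made by Sertoli cells in membrane-bound and soluble forms, and activates the receptor tyrosine kinase KIT, which differentiating spermatogonia need. Kit is also made by Leydig cells and mast cells, and a shorter Kit transcript that begins inside the gene is known from mouse spermatids.

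The probes are 60 bases long and detect labelled copies of polyadenylated RNA. The sequences of 2 of them are shown because they carry values that the results turn on. The first is the Kitl probe that was dim in the control library, whose ratio is a bound, and the second is the Gfra1 probe with the larger difference between libraries. Both are printed in lower case, with no part marked.
Kitl probe at transcript base 400: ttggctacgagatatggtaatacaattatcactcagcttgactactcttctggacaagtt
Gfra1 probe at transcript base 1340: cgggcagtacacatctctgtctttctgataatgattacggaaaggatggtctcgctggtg
Positions are those of the array files, on mouse build mm9 (NCBI37). The Kitl probe lies at chr10:99539380-99539439 on the plus strand. The Gfra1 probe spans chr19:58313006-58313772 on the minus strand, so its 60 bases are spread over 767 genomic bases and cross at least 1 intron. The files do not name the exon of any probe.

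The ligand probes were all higher in the busulphan library, by 6.50-fold for Gdnf, 13.9-fold for one Kitl probe and at least 9.63-fold for the other. That bound holds for the main processing only, and with another background correction (normexp) the same Kitl probe was 2.30-fold higher. The receptor probes lay lower, by 5.96-fold for one Gfra1 probe, 1.28-fold for the other and 1.37-fold for Kit. On the log2 scale the 1.28-fold value was smaller than 1.96 times the scanner software's own error, so it is not a resolved difference. Every ligand probe therefore had a higher ratio than every receptor probe. A 2-fold difference was the size used for counting, and 3 of 3 ligand probes were higher by at least that much, while 31.6% of the 12852 probes compared were. Of the receptor probes, 1 of 3 was at least 2-fold lower, a share reached by 29% of all compared probes, and 2 lay within 2-fold. The libraries thus differed widely over the whole array, with an SD of 2.07 over log2 ratios. Of all probes past 2-fold, 52.1% were higher, and 25.4% when the arrays were scaled to their spike-in controls instead. With that scaling, which lowers each log2 ratio by 0.90, all 3 receptor probes were at least 2-fold lower and all 3 ligand probes at least 2-fold higher.

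Gdnf was measured by 1 probe, at base 2901 of its transcript, chr15:7786968-7787027 on the plus strand. Its background-corrected signal was 206 ± 20.6 in the busulphan library and 36.6 ± 3.98 in the control library, where the error is the scanner software's own spot error. Both spots were well above background, with raw signals of 13.9 and 3.51 times the local background in the busulphan and control libraries. Scaled to the 75th percentile of each array, the log2 level was -2.14 in the busulphan library and -4.84 in the control library, a log2 ratio of 2.70 ± 0.21 (6.50-fold higher). With normexp background correction, which shrinks the ratios of dim spots, it was 1.72. Of the compared probes, 93.4% had a lower ratio.

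Kitl had 2 probes, both higher in the busulphan library. The probe at transcript base 4884, at chr10:99562481-99562540 on the plus strand, had a signal of 1384 ± 138 in the busulphan library and 115 ± 11.6 in the control library. Its log2 ratio was 3.80 ± 0.21 (13.9-fold higher), above that of 98.4% of the compared probes. The probe at base 400, printed above, had a signal of 62.5 ± 6.37 in the busulphan library. In the control library its signal of 4.58 ± 1.55 was not well above background, and the raw spot was 1.81 times the local background. The difference is therefore a lower bound, at least 9.63-fold (log2 3.27 ± 0.51), taken against 7.50, the lowest control signal among probes well above background. The ± 0.51 is the error of the measured spots, the dim control spot included, and not of the bound. The bound holds for the main processing only. With normexp the log2 ratio was 1.20, and relative to the spike-in controls it was 2.36. The log2 ratio at base 400 minus that at base 4884 was at least -0.53, a bound that cannot be judged against the software error. With the measured value in place of the bound it was 0.18, and over the alternatives it ran from -2.11 to 0.18. Each probe matched 3 Ensembl transcripts in the files, and the files do not say whether they separate the membrane-bound and soluble forms.

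Gfra1 had 2 probes that differed from each other. The probe at base 1340, printed above, had a signal of 20.9 ± 2.50 in the busulphan library and 144 ± 14.5 in the control library. The log2 ratio was -2.57 ± 0.23 (5.96-fold lower), and 12.4% of the compared probes had a lower one. With normexp it was -1.17. The probe at base 2742, at chr19:58311604-58311663, had a signal of 31.9 ± 3.48 in the busulphan library and 47.0 ± 5.00 in the control library. Its log2 ratio of -0.35 ± 0.22 was within 2-fold and smaller than 1.96 times the software error. It was -1.26 relative to the spike-in controls and -0.05 with normexp. The log2 ratios, base 1340 minus base 2742, differed by -2.22 ± 0.31 (4.67-fold), which is beyond the software error of the spots and ran from -2.34 to -1.12 over the alternatives. Which transcripts of Gfra1 each probe detects was not tested. The raw spots of the base 1340 probe were 2.44 and 8.84 times the local background in the busulphan and control libraries. Those of the base 2742 probe were 3.07 and 4.19 times. Both probes were thus weak in the busulphan library, though well above background in both libraries, and neither ratio is a bound.

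Kit was measured by 1 probe at base 4665 of its transcript, chr5:76052287-76052346 on the plus strand. Its signal was 253 ± 25.3 in the busulphan library and 399 ± 39.9 in the control library. The log2 ratio was -0.45 ± 0.20, within 2-fold (-1.35 relative to the spike-in controls), and 39.1% of the compared probes had a lower one. The files do not say whether the probe detects the shorter transcript of spermatids as well as the full-length one. In bulk samples like these, fewer cells of a type and less RNA per cell cannot be told apart, and this holds for every member.

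**Figure D1:**
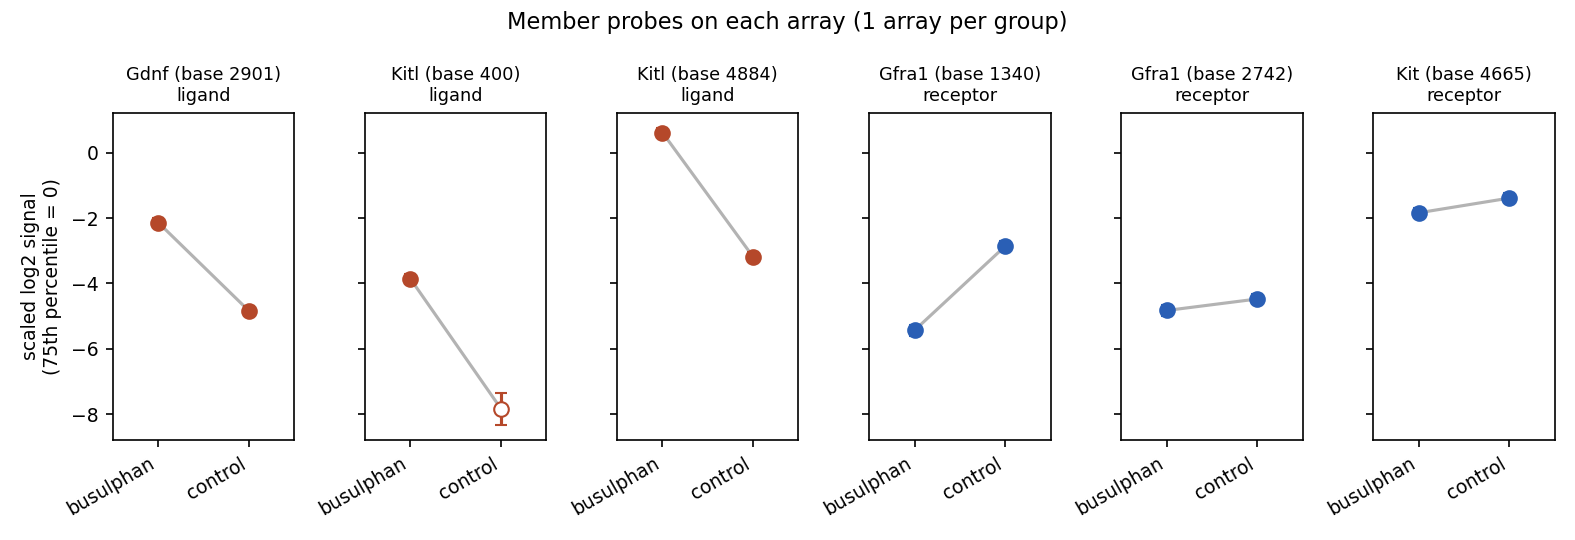
Scaled log2 level (log2 signal minus the array's 75th percentile, y axis) of each of the 6 probes, 1 panel per probe, with the busulphan library left of the control library and bars for the software's spot error, n = 1 per library. The open circle marks the control spot of the Kitl base 400 probe, which was not well above background. Levels can be compared only within a panel. Ligands are red and receptors blue, and the busulphan point is the upper one in the 3 ligand panels and the lower one for Gfra1 at base 1340 (-5.43 in the busulphan library, -2.86 in the control library).

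Each ligand was then set against its receptor. The median log2 ratio was at least 3.27 over the ligand probes (2.70 to 3.80), since the middle one is the bound of Kitl at base 400, and -0.45 over the receptor probes (-2.57 to -0.35). Under the main processing the difference was at least 3.72. That bound does not hold with normexp, where the difference was 2.10. The lowest ligand ratio, that of Gdnf, exceeded the highest receptor ratio, that of Gfra1 at base 2742, by 3.05. The log2 ratio of Gdnf exceeded that of Gfra1 by 5.27 ± 0.31 with the base 1340 probe (38.7-fold) and by 3.05 ± 0.31 with the base 2742 probe (8.29-fold). That of Kitl exceeded that of Kit by 4.25 ± 0.29 with its base 4884 probe (19.0-fold) and by at least 3.72 ± 0.55 with its base 400 probe (13.2-fold). The ± 0.55 is the error of the measured spots and not of the bound. Over the alternatives the Gdnf differences ran from 2.89 to 5.27 and from 1.77 to 3.05, and the Kitl differences from 3.69 to 4.45 and from 1.59 to 4.43. A constant scaling of an array cancels in them.

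**Figure D2:**
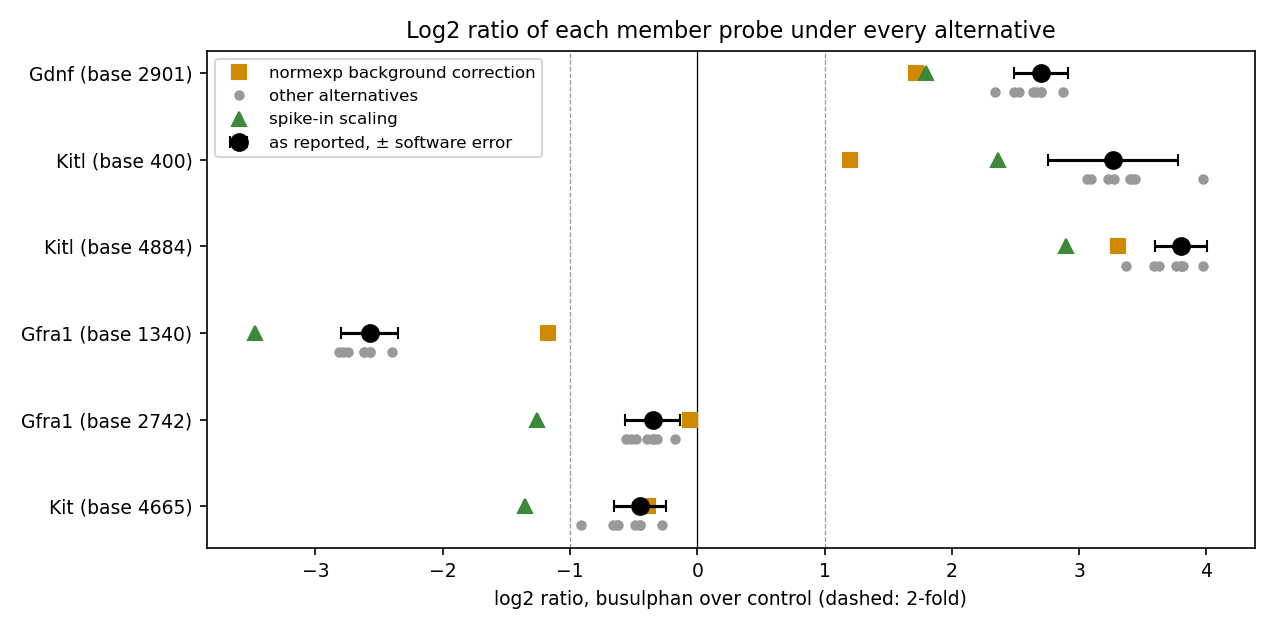
Log2 ratio, busulphan over control (x axis), of each of the 6 probes under the main processing and each alternative, with the software error for the main value. Every ligand probe stays to the right of every receptor probe in the settings drawn (dashed lines at 2-fold), and the Gfra1 base 1340 probe lies furthest left, at -3.48 relative to the spike-in controls and -1.17 with normexp background correction. A constant scaling moves all 6 probes alike and cannot change their order.

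Most other GDNF family members were lower in the busulphan library. Of 9 compared family ligands and receptors, 2 were higher by 2-fold or more, 6 lower and 1 within, with a median log2 ratio of -1.26 against 0.06 over all 9441 genes compared, of which 31.3% were higher and 29.5% lower. Without Gdnf and Gfra1, 1 of 7 was higher and 5 were lower. Gfra2, the co-receptor for neurturin, was 67.3-fold lower, with a signal of 13.3 in the busulphan library and 1034 in the control library (log2 -6.07, and -3.73 with normexp). Nrtn, which encodes neurturin, was 2.49-fold lower and Gfra4, the persephin co-receptor, 2.98-fold lower. Pspn, which encodes persephin, was at least 2.48-fold higher, with a signal of 16.1 in the busulphan library and 5.18 in the control library, where it was not well above background. Artn, which encodes artemin, was at least 2.39-fold lower, and Gfra3, its co-receptor, had a log2 ratio of 0.71. Ncam1, an alternative GDNF receptor, had a log2 ratio of -1.23 at its brightest probe and -2.43 to 0.18 at the others. Ret, the signalling partner of GFRA1, was not well above background in either library (6.32 in busulphan, 2.35 in control), so no difference could be given. The folds of Pspn and Artn were under 2-fold with normexp background correction (0.43 and -0.10 on the log2 scale), and so was Pspn relative to the spike-in controls (0.41).

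Of 11 compared adaptors that carry RET signals into the cell, 8 were higher by 2-fold or more and none lower, with a median of 1.41 (3 higher and 1 lower relative to the spike-in controls). Over all genes compared, 31.3% were higher and 29.5% lower by that much, and the counts of the lists below are to be read against these shares. Fyn, a Src family kinase, was 13.7-fold higher (8.47-fold with normexp) and Grb2, which links receptors to RAS, 7.80-fold higher. Plcg1 and Dok1 were within 2-fold, at -0.49 and 0.16. Genes that GDNF raises in cultured mouse spermatogonia were mixed, with 4 of 7 compared higher and 1 lower (3 higher and 2 lower relative to the spike-in controls). Cxcr4, the receptor for CXCL12, was 30.4-fold higher, with a signal of 525 in the busulphan library and 19.9 in the control library (log2 4.93, and 3.14 with normexp). Etv5, a transcription factor made by both Sertoli cells and spermatogonia, was 7.05-fold higher (log2 2.82, and 1.75 with normexp) and Egr2 8.05-fold higher. Pou3f1 was 2.51-fold higher, though within 2-fold with loess (0.97) and relative to spike-in controls (0.42). Lhx1, a transcription factor of stem cells, was 5.16-fold lower (log2 -2.37, and -1.48 with normexp). Bcl6b and Id4 were within 2-fold at -0.39 and 0.36, while a second Id4 probe gave 1.30. Nanos2, an RNA-binding protein of stem cells, was not well above background in either library. Zbtb16, Stra8, Sohlh1 and Sohlh2 were not measured here.

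On the KIT side, 9 of 18 signalling genes were higher by 2-fold or more, 3 lower and 6 within, with a median of 1.16, where 31.3% of all genes were higher and 29.5% lower. Relative to the spike-in controls 5 were higher and 7 lower. The list shares genes with the RET adaptors above, so the counts are not separate. Grb2, Shc1, Sos1, Src and Fyn are counted as higher in both, and Plcg1 as within 2-fold. Pik3r1, a subunit of the kinase that KIT recruits, was 9.74-fold higher, and Gab2, a docking protein, 9.54-fold lower. With normexp the log2 ratio of Gab2 was -1.75 and that of Pik3r1 2.63. Cbl, a ubiquitin ligase that turns KIT over, was 30.5-fold lower, with a signal of 101 in the busulphan library and 3548 in the control library. Among 5 compared inhibitors of KIT signalling 3 were higher (1 relative to the spike-in controls), Cbl was lower and Ptpn6, a phosphatase, was within 2-fold at 0.26. Socs6 was 4.09-fold higher and Cblb 3.53-fold higher, though Cblb was under 2-fold with normexp (0.59) and spike-in scaling (0.92). Of 4 enzymes linked to the release of KITL or KIT from the cell surface, 3 were higher. These were Adam10 by 8.40-fold, Mmp14 by 6.48-fold and Adam17 by 2.46-fold, with Adam10 at 2.82-fold under normexp and Adam17 under 2-fold (0.40) relative to the spike-in controls. Mmp9 was within 2-fold at 0.41, and 1.29 at its other probe. Khdrbs1, an RNA-binding protein of germ cells, was within 2-fold at -0.20.

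Of 18 genes known to act on Gdnf or Kitl in Sertoli cells, 14 were higher by 2-fold or more and none lower by their brightest probes (8 higher and 2 lower relative to the spike-in controls), against 31.3% and 29.5% of all genes. With the median over the probes of a gene 1 was lower. That gene, named after its values were seen, is Jag1, a Notch ligand, at 1.57 by its brightest probe and -4.43 by its other. Fshr, the follicle-stimulating hormone receptor, was 29.4-fold higher, with a signal of 770 in the busulphan library and 30.3 in the control library (log2 4.88, and 3.49 with normexp). Sox9, a Sertoli transcription factor, was 34.8-fold higher, with log2 ratios of 2.24 and 4.96 at its other probes. Hey1 and Creb1 were within 2-fold, at -0.51 and -0.13. Of the regulators of Kit in germ cells, 3 of 8 could be compared and 3 were higher. Mitf was 7.94-fold higher (3.59-fold with normexp), though another of its probes gave -0.76. Dmrt1 was 3.55-fold higher and Sall4 3.14-fold higher, but relative to the spike-in controls they were under 2-fold (0.92 and 0.75), and a second Sall4 probe gave -0.51.

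Other niche ligands, 15 compared, were higher for 7 and lower for 3, with a median log2 ratio of 0.74 (0 relative to the spike-in controls, with 4 higher and 5 lower), against 31.3% and 29.5% of all genes. Jag1 is counted here as higher too. Dhh, a Sertoli signal to Leydig cells, was 16.5-fold higher. Csf1, a growth factor for macrophages and spermatogonia, was 5.95-fold higher, with a signal of 2613 in the busulphan library and 507 in the control library. Fgf9 was 3.36-fold lower, though under 2-fold with normexp (-0.51), and Pdgfa 2.44-fold lower, though under 2-fold with quantile normalization (-0.87). Fgf2, which promotes stem cell growth in culture, was within 2-fold at 0.58 by its brightest probe. Its other probe, dim in the control library, gave at least 1.87. Of 16 compared niche receptors 11 were higher and none lower (6 higher and 3 lower relative to the spike-in controls). Cxcr4 and Notch1, among the higher ones, are counted in lists above too. Csf1r, the CSF1 receptor, was 8.43-fold higher (4.74-fold with normexp), but its other probes gave -0.96 and 1.74. Ror2 and Fgfr3 were within 2-fold, at -0.70 and -0.35.

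**Figure D3:**
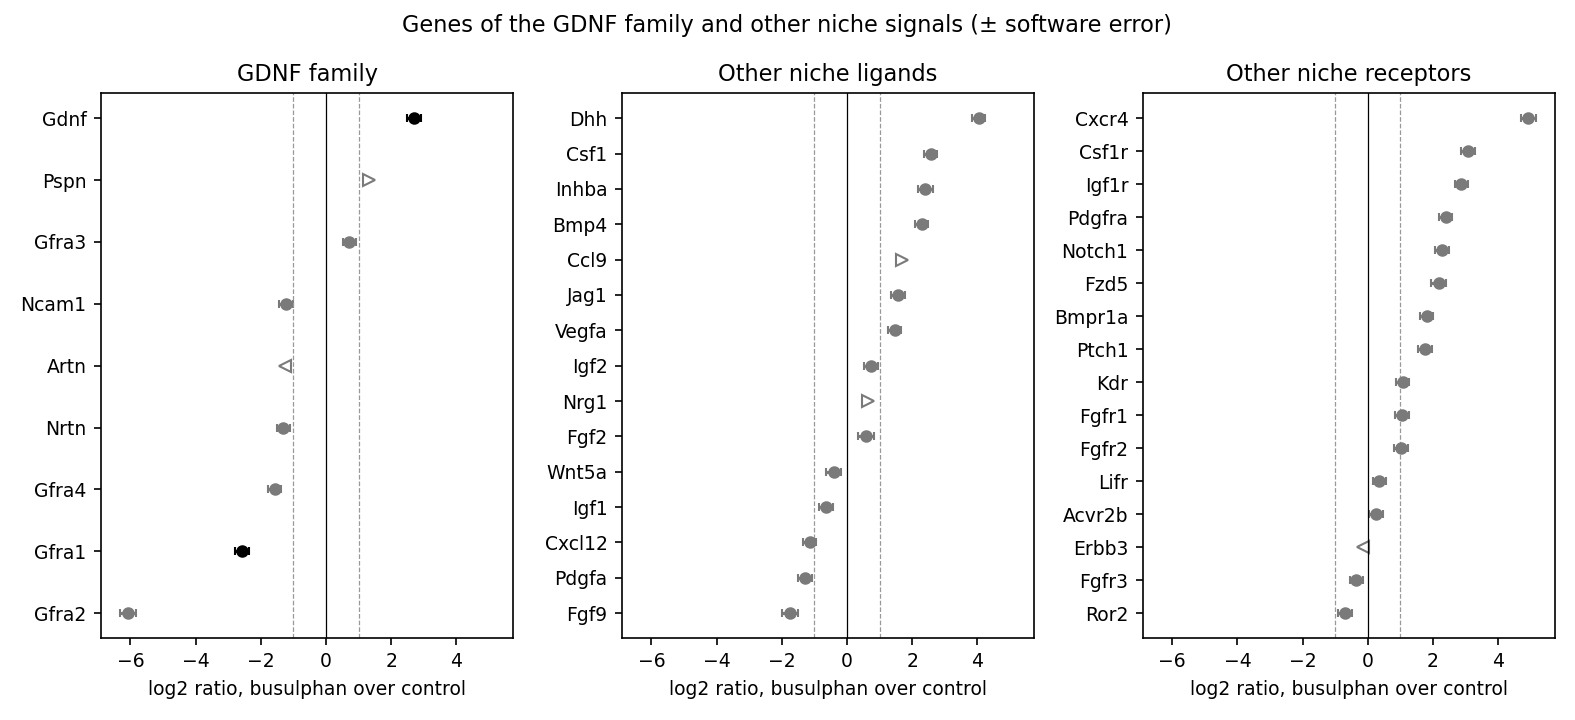
Log2 ratio, busulphan over control (x axis), of the GDNF family, other niche ligands and other niche receptors by each gene's brightest probe, with bars for software error, arrowheads for bounds, black for Gdnf and Gfra1 and dashed lines at 2-fold. Gfra2 lies furthest left at -6.07, while Cxcr4 (4.93) and Dhh (4.04) lie on the right.

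The 250 bases before the annotated starts of the ligand genes are shown because both ligands were higher. They come from RefSeq, build GRCm38.p6, and run from the far end to the base next to the start. All 4 member genes matched a promoter entry. Capitals mark matches on either strand to TATAAA (the TATA box), to TGACG (the core of the cAMP response element), to GGGCGG (the GC box) or to CACNAG (the N-box). The same search, made for the full cAMP response element TGACGTCA, which contains its core, and for the E-box CACGTG, found no match in the member genes.
Gdnf, first start, chr15:7809798-7810047, plus strand: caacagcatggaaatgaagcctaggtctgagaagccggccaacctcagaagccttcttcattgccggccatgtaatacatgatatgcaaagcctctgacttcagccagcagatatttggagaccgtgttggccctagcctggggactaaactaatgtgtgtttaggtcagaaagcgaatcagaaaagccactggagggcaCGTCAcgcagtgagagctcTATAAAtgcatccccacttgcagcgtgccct
Gdnf, second start, chr15:7813477-7813726, plus strand: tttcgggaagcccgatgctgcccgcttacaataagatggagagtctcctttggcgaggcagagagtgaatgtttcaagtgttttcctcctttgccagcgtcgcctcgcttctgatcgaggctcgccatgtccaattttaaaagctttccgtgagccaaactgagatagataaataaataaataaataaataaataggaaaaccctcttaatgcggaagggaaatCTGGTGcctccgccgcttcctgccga
Kitl, chr10:100015571-100015820, plus strand: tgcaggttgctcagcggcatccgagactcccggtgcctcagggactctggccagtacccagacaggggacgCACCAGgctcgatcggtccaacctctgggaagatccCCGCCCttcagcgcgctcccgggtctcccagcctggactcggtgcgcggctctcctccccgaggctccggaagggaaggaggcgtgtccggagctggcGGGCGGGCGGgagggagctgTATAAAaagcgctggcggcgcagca
The TATAAA match lies 31 bases before the first Gdnf start and 25 bases before that of Kitl, and 12.4% of the 32851 promoters hold one. The first Gdnf window also holds TGACG 50 bases before the start, on the minus strand (17.8% of promoters). The second Gdnf start has only CACNAG. Kitl has 3 matches to GGGCGG, 2 of which overlap (32.7% of promoters), and 1 to CACNAG (36.7%). The Gfra1 window has no match to any of the 6 motifs, while Kit has GGGCGG and 3 matches to CACNAG but no TATAAA. A match is a stretch of letters and was not tested as a binding site.

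The markers of the cell types in the preparations differed between the libraries, and they stand here beside the member values. Some markers are also in the lists above, so the counts are not separate. Sox9, Wt1, Fshr, Etv5 and Dmrt1 are among the genes that act on Gdnf or Kitl. Etv5, Id4, Bcl6b and Lhx1 are among the genes that GDNF raises. Dhh is among the niche ligands, and Csf1r, Kdr and Ptch1 are among the niche receptors. All 12 compared Sertoli markers, well above background in both libraries, were higher by 2-fold or more in the busulphan library, with a median log2 ratio of 3.75 (2.98 to 5.46), including 2 bounds from saturated busulphan spots, Clu and Amhr2. The signals of the other 10 summed to 51726 in the busulphan library and 3896 in the control library. Gdnf, at 2.70, lay under the lowest Sertoli marker, and the Kitl base 4884 probe, at 3.80, close to their median. Of 15 markers of undifferentiated spermatogonia, which carry Gfra1, 6 were higher, 2 lower and 7 within, with a median of 0.36 (-0.54 relative to the spike-in controls) and summed signals of 6833 in the busulphan library and 4790 in the control library. Id4 alone gave 3420 of that sum in the busulphan library and 3069 in the control library. Etv5, among the higher ones, is also made by Sertoli cells. Eomes, counted as within 2-fold, was dim in the busulphan library, so its value is a bound (at least 1.70-fold lower). Of 9 listed markers of differentiating spermatogonia, which carry Kit, only 4 could be compared. Stra8, Sohlh1, Sohlh2, Dmrtb1 and Rhox13 had no matched probe. All 4 compared markers were higher, with a median of 1.76, and none of these 4 reached 2-fold relative to the spike-in controls. Their signals summed to 23880 in the busulphan library and 7963 in the control library, of which Uchl1 gave 19115 in the busulphan library and 6211 in the control library. Dmrt1, another of the 4, is also made by Sertoli cells.

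Spermatocyte markers were lower for 9 of 11, with a median of -2.95, and spermatid markers for 10 of 10, with a median of -5.95 that holds bounds where control spots were saturated. Without the 3 spermatocyte and 6 spermatid markers saturated in the control library, spermatocyte marker signals summed to 6244 in the busulphan library and 69978 in the control library. Those of spermatids summed to 944 in the busulphan library and 82361 in the control library. The control preparation therefore held abundant germ cell RNA. Markers of Leydig cells, another source of Kit, were higher for 1 of 5 and lower for 1, with a median of 0.11 (-0.79 relative to the spike-in controls), and Lhcgr was dim in both libraries. Mast cells are also a source of Kit, and none of their 5 compared markers was counted as 2-fold higher or lower, with a median of -0.54. Relative to the spike-in controls 4 were lower, with a median of -1.44. Their signals summed to 33.3 in the busulphan library and 65.2 in the control library, and only 2 were well above background in both. Cpa3, Mcpt4 and Tpsb2 were dim in the busulphan library. Their values are bounds (at least 1.64-, 1.45- and 1.73-fold lower), which leave a 2-fold difference possible. Macrophage markers were higher for 6 of 9 compared, with a median of 3.24, peritubular myoid markers for 2 of 6 with a median of 0.72 and endothelial markers for 2 of 9 with a median of 0.42. Relative to the spike-in controls these last medians were -0.19 and -0.48. Housekeeping genes had a median of 0.02 over 20 compared, but 6 were higher and 4 lower by 2-fold or more (-3.49 to 2.36). Their median was 0.60 with quantile normalization, 0.67 with loess and -0.80 relative to the spike-in controls. The part that these cell types play in the member ratios was not tested.

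**Figure D4:**
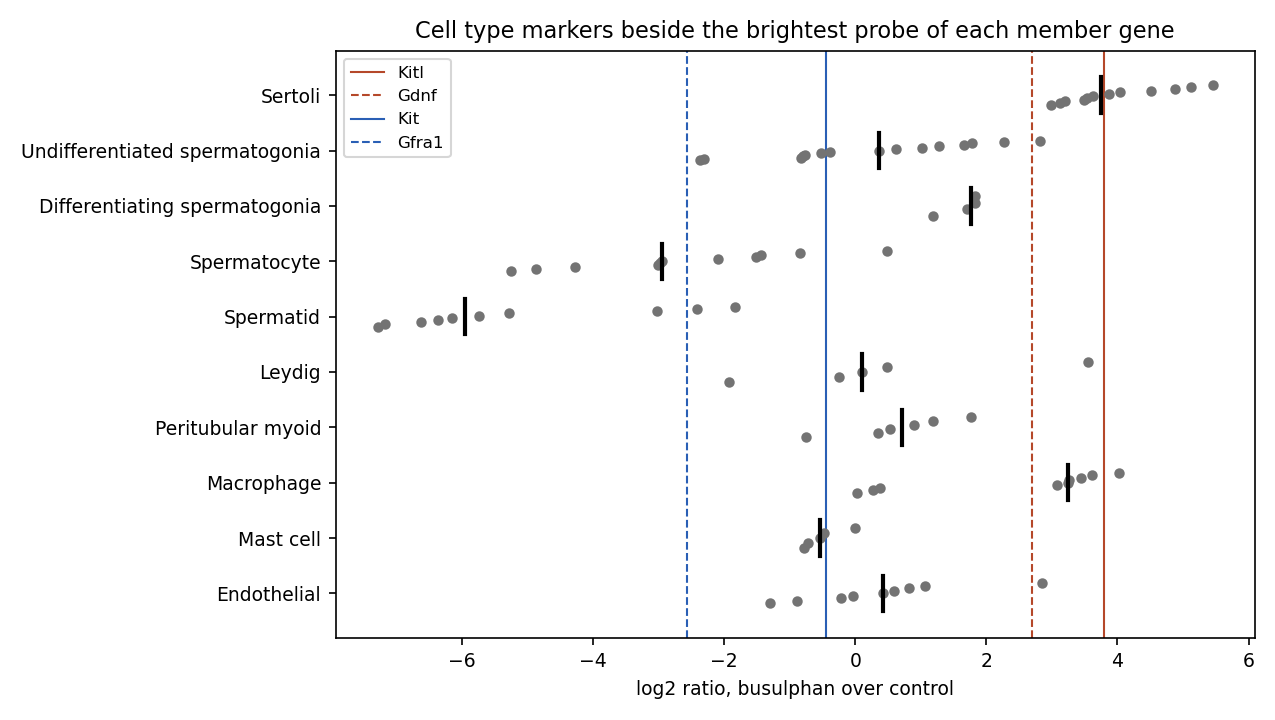
Log2 ratio, busulphan over control (x axis), of each compared marker gene by cell type, with a bar at each median and vertical lines at the brightest probes of Kitl (3.80), Gdnf (2.70), Kit (-0.45) and Gfra1 (-2.57). The Sertoli markers lie right of the Gdnf line and the spermatid markers reach -7.29.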

How the data were processed

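The 2 single-colour arrays, 1 per group, each hold 15744 spots, of which 536 are control spots. The deposited intensity values are, per the file headers, output of the Agilent scanner software, Feature Extraction 11.5.1.1. The deposited log2 table differs from the log2 processed signal by 1 constant per array (9.82 busulphan, 10.03 control).

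Values are log2 processed signals scaled to the 75th percentile of the non-control probes. Probes bright enough on either array were compared, without the 4 flagged as outliers. A dim or saturated spot gives a bound. A gene took its brightest probe. Accessions named 13330 probes through GRCm38.p6, and 1878 kept the file's name. No test was possible with 1 array in each group, so a size of 2-fold was counted. The software error covers spots only. In simulated data for 12852 probes, 98.5% of 200 probes changed 3-fold and 4% of those changed 1.5-fold were called, as were about 1.05% of unchanged probes. Error between preparations is not covered.

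The members and the 21 lists were chosen with earlier results of these data known. Genes were named as members, as part of a set of pathway genes whatever their value, or as the 2 highest and 2 lowest of a list, of which some are left out. Tools were Python 3.11.15, numpy 2.4.6, pandas 2.3.3, R 4.3.3 and limma 3.58.1 (normexp, offset 50).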

Additional observations from a re-analysis of the deposited data

How the results depend on the processing

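Ratios, lists and probe counts were recomputed with normexp background correction, other scalings (median, probes bright on both arrays, quantile, loess, housekeeping genes, spike-in controls, none), the deposited log2 table, measured values in place of bounds, and, where each could apply, other filters on dim probes, other fold thresholds (probe counts only) and the median over probes (genes and lists only). In all of the settings for the member probes, 3 of 3 ligand probes were at least 2-fold higher and every ligand ratio exceeded every receptor ratio, by 1.25 to 3.05. A constant scaling of an array cannot change that order or the gap of 3.05. The gap changed only with normexp (1.25), quantile normalization (2.96) and loess (2.82). The member values moved by more than 1.96 times the software error as follows. With normexp they were 1.72 for Gdnf, 1.20 and 3.31 for Kitl at bases 400 and 4884, and -1.17 for Gfra1 at base 1340, and the ligand minus receptor difference was 2.10. Relative to the spike-in controls they were 1.80 for Gdnf, 2.90 for Kitl at base 4884, -3.48 and -1.26 for Gfra1 at bases 1340 and 2742 and -1.35 for Kit, with 2024 probes higher and 5951 lower. With loess they were 3.37 for Kitl at base 4884 and -0.91 for Kit. At 4-fold, 1831 probes were higher and 2202 lower. The other 60 member values stayed within 1.96 software errors, and the other 24 probe counts within 1.5 times. Some of the 60 could not differ, such as the ligand minus receptor difference under a constant scaling. For that difference and for Kitl at base 400, the error used is of the measured spots and not of the bound. Their values therefore cannot be judged by it. Kitl at base 400 was 2.36 relative to the spike-in controls, against 3.27. The difference was 4.76 with only the brightest probe of each gene, against 3.72. The scalings moved the median log2 ratio of all probes to between -0.80 (spike-in) and 0.27, against 0.10. The median over probes turned the sign of 7 of 187 listed genes, 3 of them past 2-fold by the brightest probe: Cxcl12 (0.23), Ywhaz (0.17) and Jag1 (-1.43). The others were Foxo3 (1.05), Creb1 (0.40), Adgre1 (-0.35) and Cx3cr1 (-0.83). For the other named genes and lists, 1171 values stayed within the same limits and 201 moved. The cause was not tested. No paired analysis was possible because each group has 1 array. Signal over background limits Kitl at base 400, dim in the control library, and Ret, dim in both.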

Other observations

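Cxcl12, the ligand of CXCR4, differed between its probes. Its brightest probe had a signal of 400 in the busulphan library and 1023 in the control library (log2 ratio -1.15), and its other probe a log2 ratio of 1.61. Probes of the same gene also gave unlike values for Jag1, Csf1r, Mitf and Sall4, as given above. Among genes chosen after their values were seen, the log2 ratio was -0.95 at the brightest Foxo3 probe and 3.06 at the other, and -2.06 at the brightest Ywhaz probe and 2.41 at the other.

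Among 165 or 166 listed genes, those with the log2 ratio nearest to each member over 2 arrays were Mmp14 and Etv5 for Gdnf, Fyn and Gata1 for Kitl, Lhx1 and Pou5f1 for Gfra1, and Polr2a and Fcer1a for Kit. Their log2 ratios were 2.70 and 2.82, 3.78 and 3.86, -2.37 and -2.31, and -0.45 and -0.47. With 2 arrays this is a distance between single ratios, and Pou5f1 was -0.84 with normexp. Fcer1a had signals of only 12.4 in the busulphan library and 19.8 in the control library. With normexp its log2 ratio was 0.06, where that of Kit was -0.39.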
